A study of Homo sapiens with 6 samples.

Results

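The regions described here were called as accessible chromatin in 5 of 6 ATAC-seq libraries and were lacking from the peak list of NuMA-depleted replicate 3 alone. The 6 deposited lists were merged at an overlap of 1 bp or more, and of the 58926 merged regions 5122 (8.69%) met this rule. The regions were thus chosen by the presence and absence of deposited peak calls, and what follows describes them without testing that choice. A further 17009 regions were called in all 6 lists and served for comparison. All libraries were made from HCT116, a human cell line derived from a colon cancer. Replicates 1, 2 and 3 of the NuMA-depleted group carry NuMA depletion as both genotype and treatment, and replicates 1, 2 and 3 of the other group are wild type in both fields. The labels used here do not say how NuMA was depleted, for how long, whether the cells were 1 clone, or whether replicates came from separate cultures, so p-values reflect no more than how far these libraries vary, possibly for technical reasons. The protocol names 100000 cells per sample in 1 place and 500000 in another, with 12 cycles of PCR. The labelled cell line could not be checked against marker genes, as no annotation of the lists' build, hg19, was used here.

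In ATAC-seq a transposase cuts DNA where nucleosomes and other bound proteins leave it open and inserts sequencing adapters there, so open promoters, enhancers and insulators appear as peaks of fragments. NuMA is a large coiled-coil protein of the interphase nucleus that also gathers microtubules at the spindle poles in mitosis. The series' title links it to the binding of linker histone H1, the histone that seals DNA at the entry and exit of the nucleosome and favours compact chromatin. By the rule, every region here has a peak in NuMA-depleted replicates 1 and 2 and in the 3 wild-type libraries, so the calls themselves cannot show a difference between the groups.

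NuMA-depleted replicate 3 had the shortest list of the series, 21783 peaks, although it was not the shallowest library by the depth recovered from the lists. The other lists held 38466 and 45892 peaks in NuMA-depleted replicates 1 and 2 and 35502, 38685 and 32503 in wild-type replicates 1, 2 and 3. Depth recovered from the lists, divided by its average over the libraries, was 1.11 in NuMA-depleted replicate 3, 1.07 and 1.21 in NuMA-depleted replicates 1 and 2, and 0.975, 0.869 and 0.762 in wild-type replicates 1 to 3. Depth in reads is unknown.

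No other library lacked so many regions on its own. Regions called everywhere except in 1 library numbered 261 for NuMA-depleted replicate 1 and 51 for NuMA-depleted replicate 2. They numbered 524, 290 and 815 for wild-type replicates 1, 2 and 3. Thus 23.1% of the 22131 regions that the other 5 libraries all called were lacking in NuMA-depleted replicate 3, whereas the same share ran from 0.299% for NuMA-depleted replicate 2 to 4.57% for wild-type replicate 3. When every list was cut to its strongest 21783 peaks, the length of the shortest list, 1240 regions were lacking in NuMA-depleted replicate 3 alone, against 530 and 445 in NuMA-depleted replicates 1 and 2 and 539, 544 and 497 in wild-type replicates 1, 2 and 3. All 1240 overlapped the 5122 regions, of which they made up 24.2%. The cut left the list of NuMA-depleted replicate 3 whole, so this overlap follows almost wholly from the cut and is no separate support. The presence of a peak chose the regions, so these counts describe the rule and are not tested.

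The regions were of moderate strength in the 5 lists that held them, and weaker than the regions called in all 6. Strength is given as the fold of a peak over its local background, as the authors' caller wrote it, and folds of different lists need not share a scale. In a population of cells, fewer cells with an open site and less opening per cell cannot be told apart. The median fold of the 5122 regions was 6.73 in NuMA-depleted replicate 1 and 6.70 in NuMA-depleted replicate 2, against 8.24 and 8.15 for the regions called in all 6. In wild-type replicates 1, 2 and 3 it was 6.33, 7.31 and 6.54, against 7.65, 8.76 and 7.83 for the regions called in all 6. The 2 kinds of region overlapped widely in every list, and the regions called in all 6 had a median fold of 6.43 in NuMA-depleted replicate 3 itself.

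**Figure D1:**
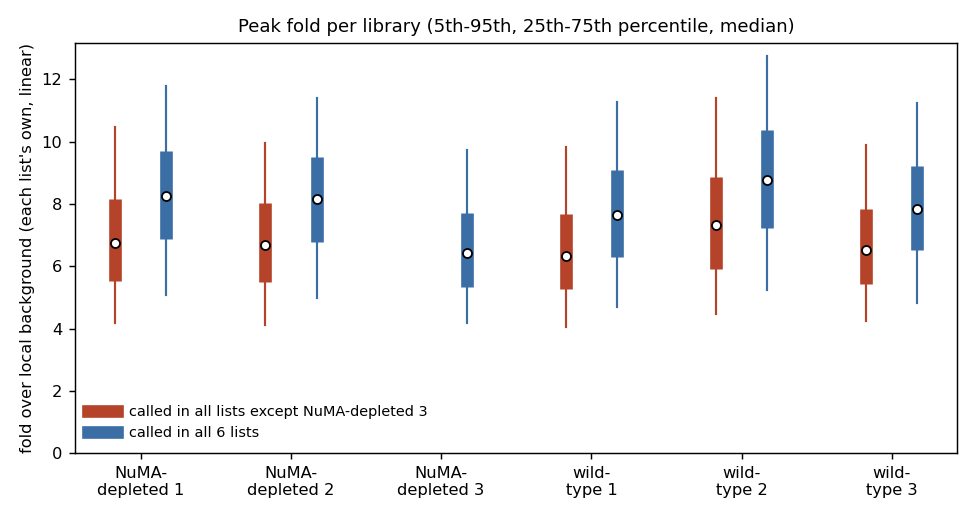
Fold over local background (vertical axis, linear, each list's own value) in each of the 6 libraries, for the 5122 regions lacking in NuMA-depleted replicate 3 (red, no value in that list) and the 17009 regions called in all 6 (blue); dots mark medians, thick bars the 25th to 75th and thin lines the 5th to 95th percentile of regions. In each of the 5 lists the red median, 6.33 to 7.31, lies below the blue one, 7.65 to 8.76, and the ranges overlap.

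Within each list the regions stood near the middle. The rule leaves out peaks called in fewer of these lists, so this position may follow in part from the rule. Ranked by fold only among the 22131 regions called in all 5 of these lists, their median percentile was 29.1 to 32.0, depending on the list. Ranked by −log10 q, the caller's adjusted significance, their median percentile was 44.9 and 52.1 in the lists of NuMA-depleted replicates 1 and 2. It was 45.4, 47.9 and 42.3 in those of wild-type replicates 1, 2 and 3. Regions called in all 6 had medians of 73.8 and 79.4 in NuMA-depleted replicates 1 and 2, and of 72.2, 74.0 and 70.4 in wild-type replicates 1 to 3. Depending on the list, 39.2% to 53.4% of the 5122 regions were above the median of a list, and 1.68% to 2.77% were among its strongest 10%. In all 5 lists at once, 804 regions (15.7%) stood above the list's median and 1126 below it, against 10002 (58.8%) and 674 (3.96%) of the regions called in all 6.

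The weakest call of a region over the 5 lists sets how close it came to being missed there too. The weakest −log10 q had a median of 7.15 and a range from 2.02 to 29.96 over the 5122 regions, against a median of 12.7 for the regions called in all 6. It was at least 5 in 3931 regions (76.7%), at least 10 in 1216 (23.7%) and at least 20 in 53 (1.03%). The weakest peak of any list had a −log10 q just above 2. No single library supplied the weak calls. The lowest percentile of a region fell in NuMA-depleted replicate 1 for 22.4% of them and in NuMA-depleted replicate 2 for 12.3%, and in wild-type replicates 1, 2 and 3 for 23.2%, 15.5% and 26.6%.

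Fold and p-value together give back the caller's whole-number count at each summit, here called fragments. Whether it counts fragments, single reads or cut sites depends on the caller's settings, which are not given. At their strongest summit the 5122 regions had a median of 21 and 28 fragments in NuMA-depleted replicates 1 and 2. They had medians of 19, 20 and 18 in wild-type replicates 1, 2 and 3. The regions called in all 6 had medians of 33 and 45 in NuMA-depleted replicates 1 and 2, and of 27, 31 and 27 in wild-type replicates 1 to 3. In NuMA-depleted replicate 3 those shared regions had a median of 22 fragments, and the lowest summit it called held 7.

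The regions that NuMA-depleted replicate 3 did call were themselves lower there, a measure the rule did not use beyond their presence. Over the 17009 shared regions, its fold was a median of 0.807 times the mean of the other 5 lists, with 10% of regions under 0.632 and 10% over 1.006. The same ratio had medians of 1.05 and 1.03 in NuMA-depleted replicates 1 and 2, and of 0.968, 1.13 and 0.991 in wild-type replicates 1, 2 and 3. NuMA-depleted replicate 3 held the lowest fold of the 6 libraries at 9821 shared regions (57.7%). Its summits held a median of 0.679 and 0.5 times the fragments of NuMA-depleted replicates 1 and 2, and 0.812, 0.736 and 0.833 times those of wild-type replicates 1, 2 and 3. Its local background was 0.819 and 0.547 times that of NuMA-depleted replicates 1 and 2, but 0.944, 0.989 and 1.006 times that of wild-type replicates 1 to 3. The summits were thus lower against every library, and the background was lower against all but wild-type replicate 3. These ratios are not scaled for depth. By recovered depth NuMA-depleted replicate 3, at 1.11, stood above wild-type replicates 1, 2 and 3, at 0.975, 0.869 and 0.762. Scaling would thus lower both its summit and its background ratios to the wild-type libraries.

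Lacking regions grew fewer as strength rose, without a sharp limit. The 22131 regions called in the other 5 lists were put into 10 classes of equal size by their weakest percentile in those lists. NuMA-depleted replicate 3 lacked 59.0% of the weakest class, 45.7% of the next, 22.4% of the class numbered 5, 6.82% of the class numbered 8 and 0.994% of the strongest, where 22 of 2213 regions were lacking. Wild-type replicate 3, which had the next highest share, lacked 15.5% of its weakest and 0.505% of its strongest class by the same measure. NuMA-depleted replicate 1 lacked 6.66% and 0.0579%. Regions of 1 list share a library and are not replicates, so these shares carry no test.

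**Figure D2:**
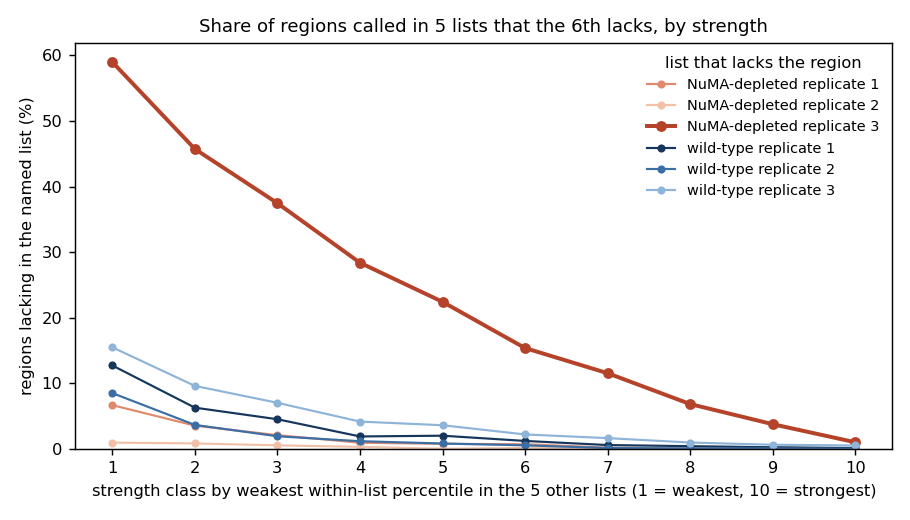
Percent of the regions called in the 5 other lists that the named list lacks (vertical axis), in 10 classes of equal size by the weakest within-list percentile (horizontal axis, 1 weakest, 10 strongest), 1 line per library. The line of NuMA-depleted replicate 3 drops from 59.0% to 0.994% and lies above the other 5 lines in each class.

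The lacking regions were narrower than those called in all 6, but near the usual width of their lists. Their median width was 425.5 and 549 bp in NuMA-depleted replicates 1 and 2, where all peaks had medians of 461 and 536 bp. In wild-type replicates 1, 2 and 3 it was 405, 421 and 409 bp, against 446, 434 and 468 bp for all peaks. A region's called width, averaged over the 5 lists that hold it, had a median of 455 bp over the 5122 regions, against 688 bp over those called in all 6. Of the lacking regions, 10% were under 330 bp and 10% over 714 bp. Nearly all, 94.7%, were a single peak in each of the 5 lists, as were 93.2% of the regions called in all 6. Their summits lay close together. The 5 summits of a region spanned a median of 106 bp, against 141 bp in regions called in all 6, and 47.6% had all 5 summits within 100 bp, against 36.2%.

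Width marked lacking regions also within classes of strength. In 5 classes of strength, the lacking regions had median widths of 445, 463, 470, 469 and 428 bp, weakest class first, and the regions called in all 6 had 547, 622, 663, 716 and 792 bp. The width of lacking regions thus varied little while that of shared regions grew with strength. Strength was not fully matched within a class. The median weakest percentile was 80.0 for lacking and 85.0 for shared regions in the strongest class, and 11.5 and 14.4 in the weakest. By mean fold over the 5 lists, lacking regions were lower only in the weakest class, with a median of 5.90 against 6.19. In the other classes they were higher, from 7.13 against 7.11 in the next class to 10.5 against 9.90 in the strongest. In the strongest class, 103 of 2213 regions narrower than the class median were lacking (4.65%), against 2 of 2213 wider ones (0.0904%). In the middle class the shares were 30.5% and 7.28%, and in the weakest class 64.5% and 40.2%. The narrower regions of the strongest class had a higher fold, with a median of 10.3 against 9.53 in the wider ones, and a slightly lower weakest percentile, 84.2 against 85.7. A wide interval meets another peak more easily, so the split was repeated with windows of 500 bp on every summit. In the strongest class, 101 of 2158 narrower (4.68%) and 11 of 2157 wider regions (0.51%) were then lacking.

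**Figure D3:**
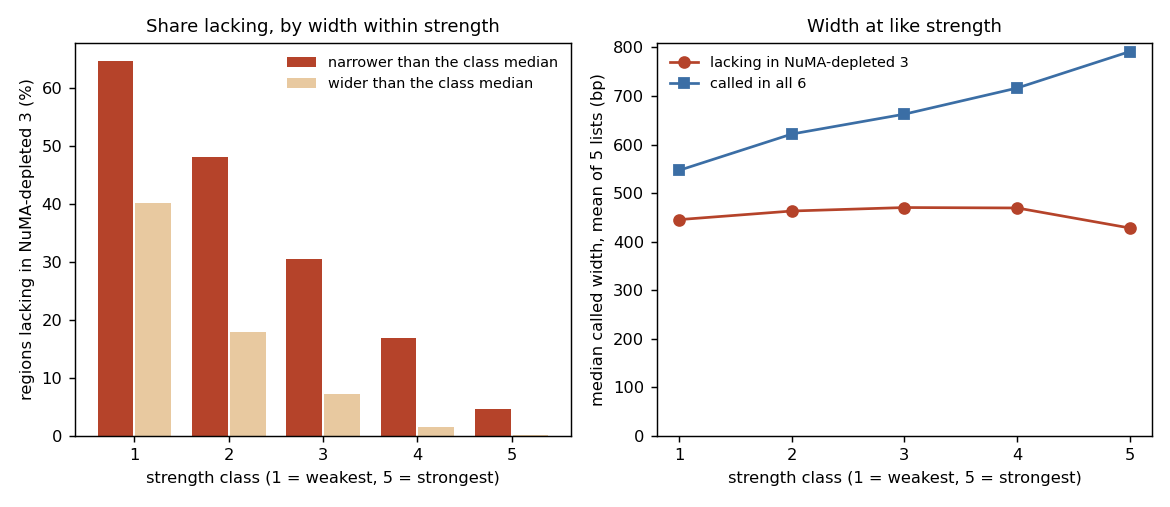
Left, percent of regions lacking in NuMA-depleted replicate 3 among regions narrower (red) and wider (sand) than the median width of their strength class; right, median called width in bp of lacking regions (red) and of regions called in all 6 (blue). Horizontal axes give 5 strength classes, 1 weakest and 5 strongest. Narrower regions have the higher share in each class, from 64.5% down to 4.65%, and lacking regions keep a median width of 428 to 470 bp.

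A bias to narrow regions was not particular to NuMA-depleted replicate 3. Of the regions it alone lacked, 71.1% were narrower than the median of their strength class. Of those lacked by NuMA-depleted replicates 1 and 2 alone, 88.5% and 94.1% were. The shares were 80.5%, 79.3% and 83.8% for wild-type replicates 1, 2 and 3.

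The strongest lacking regions were sizeable peaks in every other library. The 12 with the highest weakest −log10 q are given here with positions in hg19, in which all coordinates stand. The first lay on chromosome 3 at 197798516 to 197799246, with folds of 12.6 and 13.2 in NuMA-depleted replicates 1 and 2 and of 14.4, 17.1 and 14.1 in wild-type replicates 1, 2 and 3. Its summits held 40 and 49 fragments in NuMA-depleted replicates 1 and 2 and 33, 48 and 40 in wild-type replicates 1, 2 and 3. The NuMA-depleted values thus lay below all 3 wild-type folds, while the fragment counts of the groups overlapped. The nearest peak of NuMA-depleted replicate 3 was 7726 bp away.

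The next, on chromosome 17 at 61556055 to 61556530, held the most fragments of the 12 in a single library, 80 in NuMA-depleted replicate 1. Its folds were 12.0 and 8.98 in NuMA-depleted replicates 1 and 2 and 8.95, 10.1 and 9.33 in wild-type replicates 1, 2 and 3, so the groups overlapped. On chromosome 8, at 10785841 to 10786430, folds were 12.4 and 13.5 in NuMA-depleted replicates 1 and 2 and 11.2, 13.5 and 12.0 in wild-type replicates 1 to 3, and again overlapped. On chromosome 2, at 201390674 to 201391301, they were 12.9 and 9.12 in NuMA-depleted replicates 1 and 2, and 12.7, 14.7 and 12.8 in wild-type replicates 1 to 3. NuMA-depleted replicate 2 was there the lowest of the 5, by more than 3 units of fold.

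The remaining 8 of the 12 had mean folds between 10.1 and 12.4 over the 5 libraries. They lay on chromosome 19 at 44079382 to 44080088, on chromosome 14 at 62217513 to 62218111 and at 24299342 to 24299761, on chromosome 15 at 77363222 to 77363808, on chromosome 10 at 113119931 to 113120481, on chromosome 4 at 15922665 to 15923507, on chromosome 20 at 57198827 to 57199572 and on chromosome 8 at 133227678 to 133228344. The region on chromosome 20 had the lowest single fold of the 12, 7.58 in NuMA-depleted replicate 2, against 12.1 in NuMA-depleted replicate 1 and 10.4, 10.2 and 10.1 in wild-type replicates 1, 2 and 3. All 12 were narrow to moderate, with called widths averaging 272 to 619 bp. Absence from a list means that no peak passed the caller's threshold, and a site may be open below it.

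**Figure D4:**
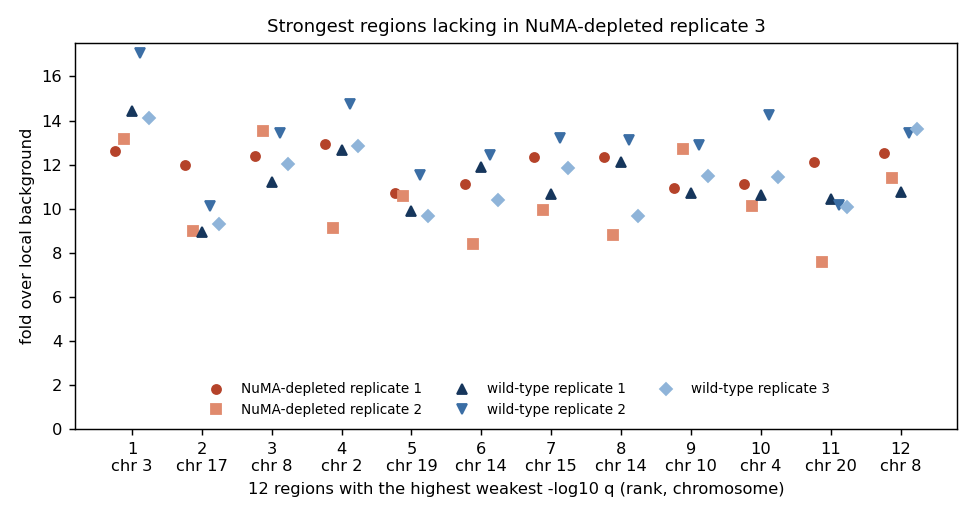
Fold over local background (vertical axis, linear) in the 5 libraries that called them, for the 12 strongest regions lacking in NuMA-depleted replicate 3 (horizontal axis, rank and chromosome); each point is 1 library. Values run from 7.58 to 17.1, and NuMA-depleted replicate 2 is the lowest of the 5 at several of them.

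A lacking region of typical strength, taken as 1 of the 3 whose weakest −log10 q was nearest to the median, had folds of about 5 to 7. On chromosome 1 at 39491426 to 39492815 they were 6.25 and 7.39 in NuMA-depleted replicates 1 and 2 and 7.36, 5.82 and 6.95 in wild-type replicates 1, 2 and 3. On chromosome 1 at 109781985 to 109783603 the NuMA-depleted libraries had 4.68 and 4.48, whereas the wild-type libraries had 6.97, 7.24 and 5.77. The groups overlapped at the first of these and did not at the other. On chromosome 19 at 3727905 to 3729025 they ranged from 4.71 to 6.28 over the 5 libraries and overlapped. The 3 regions were typical in strength but not in width. Their called widths averaged 904, 792 and 795 bp, against a median of 455 bp and a 90th percentile of 714 bp over the lacking regions.

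The 3 widest merged regions had mean folds below the median of the lacking regions, 6.80. That on chromosome 5 at 145314648 to 145317423 spanned 2776 bp, with folds of 7.41 and 5.27 in NuMA-depleted replicates 1 and 2 and 5.18, 5.73 and 6.42 in wild-type replicates 1, 2 and 3. Those on chromosome 9 at 35688836 to 35691437 and on chromosome 3 at 98547686 to 98550220 spanned 2602 and 2535 bp, with mean folds of 4.65 and 3.72 over the 5 libraries. The weakest −log10 q was 9.30 on chromosome 5, above the lacking regions' median of 7.15. It was 4.83 on chromosome 9 and 5.00 on chromosome 3, below that median.

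The edge of the rule is shown from each side, by different measures. The 3 lacking regions nearest to a peak of NuMA-depleted replicate 3 were 141, 230 and 242 bp from one. They lay on chromosome 1 at 43831988 to 43832911 and on chromosome 8 at 82754741 to 82755136 and at 42995771 to 42996505, with mean folds of 4.46, 5.66 and 4.80. The 3 regions that NuMA-depleted replicate 3 called with its lowest −log10 q, between 2.01 and 2.06, lay on chromosome 4 at 6690324 to 6691921, on X at 12992512 to 12993780 and on chromosome 12 at 51431899 to 51432762. Their folds there were 2.96, 3.66 and 3.55, while the means over the other 5 lists were 5.54, 6.91 and 6.91.

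Lacking regions were spread over all 23 chromosomes, but not evenly. NuMA-depleted replicate 3 lacked 31.5% of the regions on chromosome 22 (163 of 517), 30.0% of those on chromosome 20 (179 of 596), 27.6% on chromosome 21 and 27.4% on chromosome 16, against 23.1% genome-wide. The lowest shares were 20.2% on chromosome 14 (182 of 899), 20.3% on chromosome 5 and 20.5% on chromosome 2. The low share of chromosome 14 went with the strongest regions of any chromosome, at a median weakest percentile of 61.8. Among its weak regions, the lowest 3 of 10 strength classes, 52.9% were lacking. X had the weakest regions, at a median weakest percentile of 30.9, and yet a low share, 21.3%. Over the 23 chromosomes the share lacking and this median had a Spearman rho of 0.19.

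Among regions of like strength, X had the lowest share throughout, while the order at the top varied. In the lowest 3 of 10 strength classes the share lacking was 60.5% on chromosome 20 (172 regions), 60% on chromosome 21 (75 regions), 58.6% on chromosome 22 (157 regions) and 32.1% on X (218 regions). In the middle 3 classes it was 31.6% on chromosome 22, 29.6% on chromosome 17, 29.3% on chromosome 16, 29.1% on chromosome 13, 28.8% on chromosome 15, 27.3% on chromosome 20 and 12.9% on X. In the highest 4 classes it was 10.7% on chromosome 22, 9.57% on chromosome 20, 9.30% on chromosome 21 and 2% on X (50 regions). Chromosome 19, which like chromosome 22 is gene-dense, had 22.6% of its regions lacking, close to the genome-wide share. The pattern differed for the library with the next most lacking regions. Over all strengths, wild-type replicate 3 lacked 2.21% on chromosome 22 (8 regions), 3.02% on chromosome 20 (13) and 1.71% on chromosome 19 (14). Its genome-wide share was 4.57%, and its highest, 6.84%, was on chromosome 13 (27 regions). On chromosome 22, wild-type replicate 1 lacked 3.54% against 2.99% genome-wide, and wild-type replicate 2 lacked 0.84% against 1.68%. NuMA-depleted replicates 1 and 2 lacked 0.84% and 0% there, against 1.51% and 0.299% genome-wide. These shares were not tested, as regions of 1 chromosome are not replicates.

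Chromosomes also differed in how low NuMA-depleted replicate 3 was at the regions it did call. Its fold at shared regions, as a ratio to the mean of the other 5 lists, had its lowest median on chromosome 22, at 0.778, and its highest on X, at 0.849, with 0.795 on chromosome 20. Over the 23 chromosomes the share lacking and this ratio had a Pearson r of -0.57 and a Spearman rho of -0.57. Without chromosomes 22 and X, r was -0.45 and rho -0.46 over 21. The points share the same 6 libraries, and base composition and copy number of the chromosomes were not measured, so their part in this relation was not tested.

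**Figure D5:**
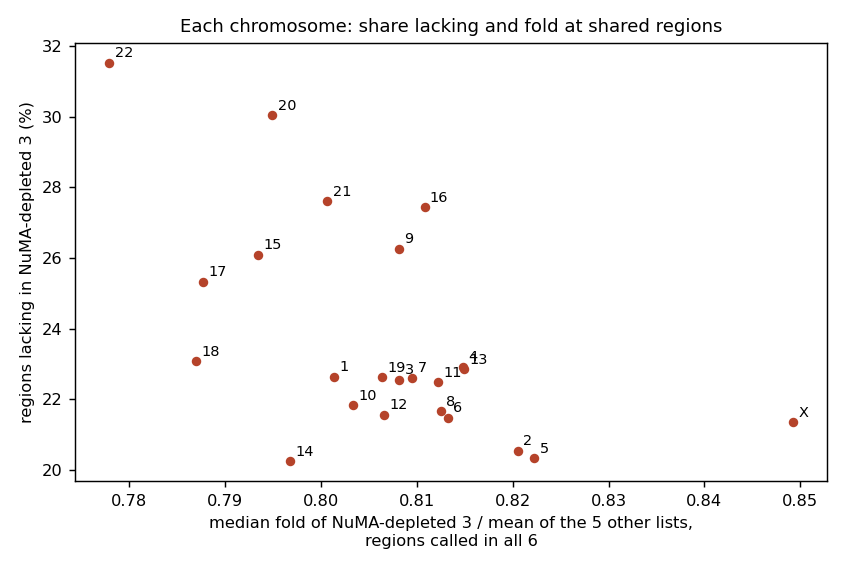
Each point is a chromosome. The horizontal axis gives the median ratio of the fold in NuMA-depleted replicate 3 to the mean of the other 5 lists over regions called in all 6, and the vertical axis the percent of regions called in those 5 lists that it lacks; the axes do not start at 0. Chromosome 22, at 0.778 and 31.5%, and X, at 0.849 and 21.3%, mark the ends of the horizontal axis.

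Along the chromosomes, lacking regions stood among regions that NuMA-depleted replicate 3 called. The nearest peak of that library was a median of 25.3 kb away, and between 5.00 and 114 kb away for the middle 80% of them. Regions called in all 6 were a median of 25.5 kb from the next region with a peak of that library. Only 117 lacking regions (2.28%) had such a peak within 1 kb. Of the regions that follow a lacking region, 25.2% were lacking too, against 22.5% of those that follow a shared region, among regions called in the other 5 lists. In 423 bins of 5 Mb with at least 20 such regions, the share lacking ran from 2.86% to 45.8% with a median of 22.7%, and each bin held at least 1. The middle 80% of bins lay between 12.9% and 32.5%. The extremes rest on small counts, 1 of 35 and 11 of 24 regions, and the part of counting in this spread was not tested.

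Among regions called in the other 5 lists, 2885 lacking ones (56.3%) had no lacking neighbour on either side. Whether this share differs from that of a random order was not tested. The longest stretch without a shared region held 10 in a row, on chromosome 22 between 33171949 and 35552975. In these 2381 kb, NuMA-depleted replicate 3 had 3 peaks, NuMA-depleted replicates 1 and 2 had 30 and 36, and wild-type replicates 1, 2 and 3 had 21, 27 and 19. The next longest held 8 regions each. In that on chromosome 4, from 8535842 to 9154480, NuMA-depleted replicate 3 had 1 peak, NuMA-depleted replicates 1 and 2 had 17 and 23, and the wild-type libraries 12 to 13. In that on chromosome 16, from 85368776 to 85526235, it also had 1, against 10 to 13 in the other 5 libraries. These stretches were picked as the longest after their values were seen. Each lacking region in them has by rule a peak in the other 5 lists and none in NuMA-depleted replicate 3. The contrast in peak counts thus follows largely from the choice of the stretches and is no separate result.

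Whether the regions lacking in NuMA-depleted replicate 3 were also lower in NuMA-depleted replicates 1 and 2 than in wild-type libraries was asked of the 5 lists that hold them. No region passed the test, and the regions as a group lay slightly lower. Each library's folds were ranked over the same 22131 regions, from 0 for the weakest to 100 for the strongest. The lacking regions had a median rank of 29.1 and 29.7 in NuMA-depleted replicates 1 and 2, and of 31.2, 32.0 and 31.1 in wild-type replicates 1, 2 and 3. For regions called in all 6, the NuMA-depleted libraries had 56.0 and 56.1, and the wild-type libraries 55.7, 55.5 and 55.7. Ranks have the same average in every library, so this opposite shift follows from the ranking and is not a separate result. The differences were small beside the spread of single regions.

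By limma on these ranks, with Benjamini-Hochberg adjustment over all 22131 regions, 0 of the 5122 lacking regions changed, against 0% of all regions tested, and the smallest adjusted p was 0.36. An unadjusted p under 0.05 was found at 213 lacking regions higher in NuMA-depleted replicates 1 and 2 and at 241 lower, while 4.59% and 4.1% of all regions tested were higher and lower. The ranks of the groups did not overlap at 528 lacking regions (10.3%) that were higher in NuMA-depleted replicates and at 699 (13.6%) that were lower, against 12.1% and 12.4% of all regions tested. In simulated data this fit on ranks missed changed regions that a fit on log2 fold recovered, so its count of 0 cannot decide.

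The fit on log2 fold, quantile-normalized over the same regions, also called 0 lacking regions by limma, against 0% of all regions, with a smallest adjusted p of 0.149 among them and 0.0868 among all. The median log2 difference, NuMA-depleted replicates 1 and 2 minus wild type, was -0.022 over the lacking regions, with the middle 80% between -0.32 and 0.28, and -0.004 over all regions. An unadjusted p under 0.05 was found at 5.00% of lacking regions higher and at 6.83% lower in NuMA-depleted replicates, against 4.39% and 4.12% of all regions tested. Both shares were thus raised. Lacking regions also varied more between the 5 lists, with a median SD of fold over its mean of 0.157 against 0.130 in regions called in all 6. In the fit on ranks the share, both directions together, was 8.86% of lacking and 8.68% of all regions. All 3 wild-type libraries were shallower than both NuMA-depleted ones, and the part of depth in these values was not tested.

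The smallest p among lacking regions belonged to a region on chromosome 10 at 74572360 to 74572946, with folds of 9.63 and 8.83 in NuMA-depleted replicates 1 and 2 and of 4.74, 6.29 and 4.53 in wild-type replicates 1, 2 and 3. Its log2 difference was 0.84 (SE 0.169), with an adjusted p of 0.149 by limma. A region on chromosome 1 at 157972244 to 157973406 followed. Its folds were 4.02 and 3.75 in NuMA-depleted replicates 1 and 2 and 7.58, 6.61 and 6.59 in wild-type replicates 1 to 3, a log2 difference of -0.83 (SE 0.17) with the same adjusted p of 0.149 by limma. The groups did not overlap at either region, and both were picked after their values were seen. Among the 12 strongest lacking regions the log2 difference lay between -0.30 and 0.13, with adjusted p between 0.678 and 0.983 by limma.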

How the data were processed

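The submitters' processing notes name Trim Galore, Bowtie2 2.4.1, Picard and the build hg19. The peak names in the files record a macs2 folder. Neither the caller's settings nor read filters nor any shift of reads for the transposase are given in the sources used here. For each peak the deposited lists give an interval, a summit, −log10 of the p-value and of the q-value, and the fold over local background, which is a linear ratio. The deposited score is 10 times the −log10 q, and was not used. Peaks were called per sample, and a library's values belong to its own list.

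Coordinates are printed 1-based. Where a library had several peaks in a region, its strongest value was used. Fragments under a summit were recovered from fold and p under a Poisson model, with a whole number found within 0.01 on the −log10 p scale for 99.98% to 99.99% of peaks. Depth was taken as proportional to the smallest background divided by the smallest peak width, which is assumed to equal the fragment length. Percentiles rank peaks within a list by −log10 q.

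Only NuMA-depleted replicates 1 and 2 against wild-type replicates 1 to 3 were tested, at an adjusted p of 0.05, by limma (version 3.58.1, R 4.3.3), checked on simulated data. The rule for named regions took the 12 strongest, 3 of typical strength, 3 widest and 3 on each side of the rule's edge. It also took up to 10 called by limma in each direction. Python 3.11.15 did the rest, with scipy 1.17.1, pandas 2.3.3 and numpy 2.4.6. The regions, lists and tests were chosen with earlier results of these data known. Genes, transcription starts, base composition, motifs and sequences were not analysed here, since the reference tables are on another build. No list of problem regions of the genome was applied.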

Additional observations from a re-analysis of the deposited data

How the results depend on the processing

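The 5122 regions lacking in NuMA-depleted replicate 3 alone numbered 1240 with equal numbers of peaks, 5399 to 6668 when each of the other 5 libraries was left out, and between 3931 and 5228 under the other 5 alternatives. The median width of lacking minus shared regions, -233 bp, was -220 bp when peaks under a −log10 q of 5 were dropped and -266 bp with equal numbers. Their median weakest percentile, minus that of shared regions, -31.3 points, was -33.1 when such peaks were dropped, -24.9 with equal numbers and -24.4 when ranked by fold. The limma counts were 0 under all alternatives run, also without each replicate (0 to 0); with a single NuMA-depleted library left, it is assumed to vary like the wild-type ones. The smallest adjusted p of limma over these alternatives ran from 0.0868 to 0.707 among all regions and from 0.149 to 0.707 among lacking ones. With the replicate number as a block the count was 0 among all regions and among lacking ones. Deviations of same-numbered libraries from their group means had correlations of -0.012 and -0.025 over 2 pairs. The deviations of NuMA-depleted replicates 1 and 2 mirror each other, so these values cannot decide whether the numbers pair the samples. The mean trend in limma and the width split in 500 bp windows were chosen after seeing the data. The window around transcription starts was not run. Depth in reads is unknown, so weak regions may be missed in any list.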
